A study of Cricetulus griseus with 16 samples.

Results

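Transcripts of the EGR transcription factors Egr1, Egr2, Egr3 and Egr4 and of their NAB co-repressors Nab1 and Nab2 were followed in heated CHO cells. These 6 genes were looked up by name among the 20824 genes of the deposited counts, and all 6 were listed. The group was selected on the Egr1 values, which had moved in opposite directions in a pair of heat treatments, so the Egr1 values are given below as a description without a test. Tests are given for the other members, which were taken in by name as the rest of the family and its co-repressors.

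EGR proteins are zinc finger transcription factors that bind GC-rich promoter sites. Their genes are immediate early genes, which are transcribed within minutes of a stimulus without new protein synthesis. The ERK kinases, the serum response factor SRF and its ETS partners (the TCF factors) are the usual route to Egr1 transcription. NAB1 and NAB2 bind EGR1, EGR2 and EGR3 and dampen their activity, in part through the chromatin remodeller NuRD, and Nab2 is itself an EGR target.

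CHO (ATCC CCL-61) is a Chinese hamster ovary cell line, grown here in Ham's F-12K medium with 10% fetal bovine serum and plated 24 h before heating. RNA was sequenced from 4 groups of 4 cultures each: unheated at 37 °C, 1 h at 40 °C, 6 h at 40 °C and 1 h at 42.5 °C, with replicates lettered A to D. No group carried a transgene or a drug, and all came from this single line. The sources used here do not say when the 37 °C cultures were collected relative to the heated ones, so 6 h of heat and 6 h more in culture cannot be told apart. In RNA from whole cultures, fewer expressing cells and less RNA per cell cannot be told apart either.

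The libraries held between 10504192 and 14668365 counts, and levels are given as CPM, counts per 1000000 library counts after scaling by the trimmed mean of M values (TMM). The study left out 1 control library, 37 °C replicate D, and its values are given beside those of replicates A, B and C but do not enter means or tests. It lay inside the range of the other control libraries for Egr1 and Egr2. It lay below them for Egr3 and Nab2, at 10.1 and 54.5 CPM, and above them for Nab1, at 177 CPM. Mesenchymal markers (Vim, Col1a1, Col1a2, Fn1 and S100a4) summed to between 2170 and 2830 CPM per library, nearly all of it Vim and Fn1, while the collagen genes Col1a1 and Col1a2 each stayed at or below 0.353 CPM. The endothelial (2 genes), blood (3) and Schwann cell (2) markers summed to at most 0.326 CPM in any library, with Sox10 at 0 in all groups. Of the epithelial markers, Krt8 and Krt18 were not listed by name, and Epcam and Cdh1 together stayed at or below 4.14 CPM.

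A gene was called higher or lower when edgeR's quasi-likelihood test over all genes gave a Benjamini-Hochberg adjusted p under 0.05 and the fold change was at least 1.5 either way. After 1 h at 40 °C, 0 of 4 tested members were called, against 0.334% of all genes, with 1 of the 4 (Egr2) at an unadjusted p under 0.05 and 0 called by DESeq2. DESeq2 gave Egr2 no adjusted p (unadjusted p = 0.053) and so could not call it. After 6 h, Egr2, Egr3 and Nab2 were called lower, 3 of 4, against 3.11% of all genes. At 42.5 °C for 1 h, Egr2 was called higher, 1 of 4, against 7.51% of all genes. Egr3 and Nab1 also had an adjusted p under 0.05 there but fold changes below 1.5. Nab1 was called in no comparison. Egr4 had no counts and could not be tested.

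**Figure D1:**
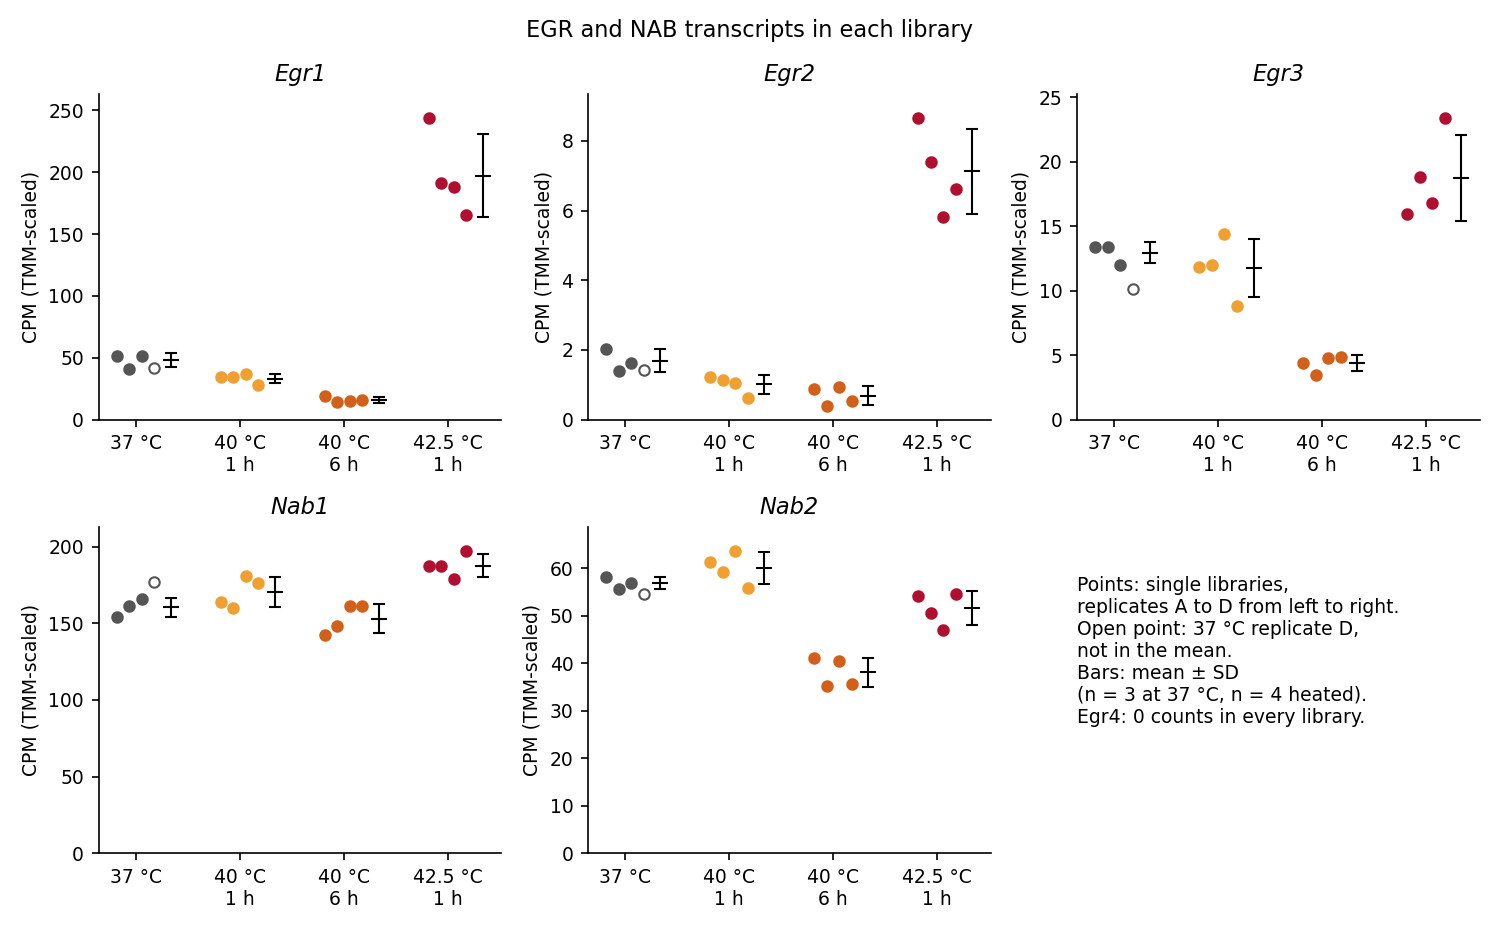
CPM (TMM-scaled, linear axes from 0) of each member in every library, by group, with single libraries as points (replicates A to D from left to right), 37 °C replicate D as an open point outside the mean, and bars for mean ± SD (n = 3 at 37 °C, n = 4 in heated groups). The lowest Egr1 library at 42.5 °C, 165 CPM, lay above the highest control library, 51.4 CPM, while all libraries at 40 °C for 6 h lay at or below 19.4 CPM.

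Egr1 (ENSCGRG00001016318) is the best known member, a rapid responder to growth factors and stress. At 37 °C it was at 51.3, 41.3 and 51.4 CPM in replicates A, B and C, from 731, 566 and 596 counts. Replicate D held 468 counts, or 41.7 CPM. At 40 °C for 1 h the 4 libraries were at 34.1, 34.1, 36.5 and 27.7 CPM. All of them lay below every control library, replicate D included. After 6 h at 40 °C Egr1 was at 19.4, 14.2, 14.8 and 16.2 CPM. These 4 libraries lay below all those of the 1 h group. At 42.5 °C for 1 h it was at 244, 191, 188 and 165 CPM, from 2696, 1940, 1942 and 2086 counts. The order of the groups was therefore 40 °C for 6 h, 40 °C for 1 h, 37 °C and 42.5 °C, with no overlap between neighbours.

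Mean Egr1 in the unheated group was 48 ± 5.81 CPM (SD, n = 3). The means of the heated groups (SD, n = 4) were 33.1 ± 3.77 CPM after 1 h and 16.1 ± 2.35 CPM after 6 h at 40 °C, and 197 ± 33.3 CPM after 42.5 °C. Fitted log2 fold changes against 37 °C were -0.53 (SE 0.09) and -1.58 (SE 0.10) for the shorter and the longer time at 40 °C, and 2.03 (SE 0.11) for 42.5 °C. Ranked among all genes tested, the 6 h value was number 4 from the lowest and the 42.5 °C value number 42 from the highest. Between the heated groups, the Egr1 level at 42.5 °C was 12.2-fold that at 40 °C for 6 h and 5.92-fold that at 40 °C for 1 h. No p is given for these values, since they chose the group.

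Egr2 (ENSCGRG00001022717), also known as Krox20, is best known from myelinating Schwann cells and the hindbrain. It was the scarcest member with any counts, with 29, 19 and 19 counts in replicates A, B and C at 37 °C and 16 in replicate D. In CPM these were 2.04, 1.39 and 1.64 for the replicates used and 1.42 for replicate D. With 1 h at 40 °C Egr2 had 18, 15, 13 and 8 counts, or 1.22, 1.15, 1.06 and 0.621 CPM. All 4 libraries lay below the 4 control libraries. The log2 fold change was -0.72 (SE 0.27), and the gene was not called (unadjusted p = 0.0155, adjusted p = 0.214 by edgeR). Its 95% interval, -1.29 to -0.16, was the widest of the members in this comparison.

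After 6 h at 40 °C Egr2 had 10, 5, 12 and 7 counts, or 0.883, 0.396, 0.947 and 0.546 CPM. All 4 libraries lay below the control libraries, and they overlapped with those of the 1 h group. The fall in Egr2 was called, with a log2 fold change of -1.29 against 37 °C (SE 0.30 and adjusted p = 0.00423), or 2.45-fold. In this comparison Egr2 passed the filter through the 37 °C libraries. From 1 h to 6 h at 40 °C the log2 difference was -0.56 (SE 0.33, 95% interval -1.25 to 0.13, adjusted p = 0.25), which was not called.

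At 42.5 °C for 1 h Egr2 had 96, 75, 60 and 84 counts, or 8.67, 7.4, 5.82 and 6.63 CPM. Every one of these libraries lay above all other libraries of the series. Egr2 rose 4.17-fold against 37 °C (log2 fold change 2.06, SE 0.19, adjusted p = 9.06e-07), number 40 from the highest among all genes. Its level at 42.5 °C was higher by 2.78 than at 40 °C for 1 h (SE 0.20, adjusted p = 1.01e-07) and by 3.35 than at 40 °C for 6 h (SE 0.23, adjusted p = 8.57e-09). In these comparisons 2 of 4 tested members were called, Egr2 and Egr3, against 5.27% of all genes between 42.5 °C and 40 °C for 1 h and 8.25% between 42.5 °C and 40 °C for 6 h. With 8 to 18 and 5 to 12 counts at 40 °C, Egr2 passed the filter there through the 42.5 °C libraries, so its calls add no support to these counts.

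Egr3 (ENSCGRG00001009879) is known from muscle spindle development and lymphocyte activation. At 37 °C it was at 13.4, 13.4 and 12 CPM in replicates A, B and C, from 191, 183 and 139 counts, and at 10.1 CPM in replicate D. At 40 °C for 1 h it was at 11.8, 12, 14.4 and 8.84 CPM. The heated and the control libraries overlapped. The log2 fold change was -0.14 (SE 0.13, 95% interval -0.41 to 0.14, adjusted p = 0.675), which was not called.

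After 6 h at 40 °C the 4 libraries had 50, 44, 61 and 62 counts of Egr3, or 4.41, 3.48, 4.81 and 4.83 CPM. They lay below every other library of the series. Against 37 °C Egr3 fell 2.95-fold (log2 fold change -1.56, SE 0.13, adjusted p = 4.16e-07), number 5 from the lowest among all genes and next to Egr1. From 1 h to 6 h at 40 °C it fell by 1.42 (SE 0.15, adjusted p = 2.15e-05), again number 5 from the lowest. In this comparison 2 of 4 tested members were called, Egr3 and Nab2, against 1.28% of all genes.

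At 42.5 °C for 1 h Egr3 was at 15.9, 18.8, 16.8 and 23.4 CPM. These libraries lay above the control libraries and above those of both 40 °C groups. The log2 fold change against 37 °C was 0.53 (SE 0.12, adjusted p = 0.00257), or 1.45-fold, and Egr3 was not called because of the fold threshold. It was called with all 4 control libraries, at 0.62, and without 42.5 °C replicate A, at 0.61. Against 40 °C for 1 h Egr3 was higher at 42.5 °C by 0.67 (SE 0.14, adjusted p = 0.00161). That call was lost without 40 °C 1 h replicate D, at 0.56, or without 42.5 °C replicate D, at 0.54. The Egr3 level at 42.5 °C exceeded that after 6 h at 40 °C by 2.09 (SE 0.14, adjusted p = 8.57e-09).

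Within the 42.5 °C group the members did not rank the libraries alike. Replicate A had the highest level of Egr1, at 244 CPM, and of Egr2, at 8.67 CPM, and the lowest of Egr3. Replicate D had the lowest level of Egr1 and the highest of Egr3. In the group heated to 40 °C for 1 h, replicate D was the lowest library for Egr1, Egr2, Egr3 and Nab2.

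Egr4 (ENSCGRG00001019685), an EGR factor known mainly from the nervous system and the testis, had 0 counts in all 16 libraries. A count of 0 allows up to 3 counts, a floor of 0.205 to 0.286 CPM per library that covers counting error only. Its expression was therefore not detectable at this depth in any group.

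Nab1 (ENSCGRG00001014583), the first of the co-repressors to be described, was at 154, 161 and 166 CPM in replicates A, B and C at 37 °C. It was at 164, 160, 181 and 176 CPM after 1 h at 40 °C and at 142, 148, 161 and 161 CPM after 6 h. At 42.5 °C it was at 187, 187, 179 and 197 CPM. The groups at 40 °C overlapped with 37 °C, and the 42.5 °C libraries lay above all 4 control libraries. From at least 1614 counts per library, the log2 fold changes against 37 °C were 0.09 (SE 0.05, adjusted p = 0.454), -0.07 (SE 0.05, adjusted p = 0.34) and 0.22 (SE 0.04, adjusted p = 0.00097). The widest of their 95% intervals ran from -0.18 to 0.04, at 40 °C for 6 h, and the highest upper bound was 0.31, at 42.5 °C. All of these intervals lay within a 1.5-fold change either way.

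Nab2 (ENSCGRG00001018114), the co-repressor that EGR factors themselves induce, was at 58.1, 55.7 and 57 CPM in replicates A, B and C at 37 °C. At 40 °C for 1 h it was at 61.4, 59.3, 63.6 and 55.9 CPM, overlapping with the control libraries. The log2 fold change was 0.08 (SE 0.05, 95% interval -0.04 to 0.19, adjusted p = 0.558).

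After 6 h at 40 °C Nab2 was at 41.1, 35.1, 40.4 and 35.6 CPM. These 4 libraries were the lowest of the series. The log2 fold change of Nab2 against 37 °C was -0.59 (SE 0.07 and adjusted p = 1.01e-05), a 1.5-fold fall that lay at the fold threshold. The call was lost in 8 of 14 alternatives, with log2 fold changes of -0.55 to -0.58 there. They included the replicate block, at -0.56, all 4 control libraries, at -0.57, and leaving out 37 °C replicate A or C or 40 °C 6 h replicate B or D. The adjusted p stayed at or below 0.0028 in all 14. From 1 h to 6 h at 40 °C Nab2 fell by 0.66 (SE 0.07, adjusted p = 1.32e-05), and this call held in all 14 alternatives.

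At 42.5 °C Nab2 was at 54.2, 50.6, 46.9 and 54.5 CPM. These values lay below those of replicates A, B and C, while replicate D had 54.5 CPM as well. The log2 fold change against 37 °C was -0.15 (SE 0.06, 95% interval -0.27 to -0.02, adjusted p = 0.0509), which was not called. Between 42.5 °C and 40 °C for 6 h the log2 difference was 0.44 (SE 0.07, adjusted p = 7.67e-05), below the fold threshold.

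Nab2 and its neighbour Stat6 have overlapping spans in RefSeq's CriGri-PICRH-1.0 annotation, which is not of the build used for mapping. The strand setting of the counting is not given in the sources used here, and reads of the overlap could then go to either gene. For Stat6 itself the log2 value at 40 °C for 6 h was -0.34 (SE 0.05, adjusted p = 0.000167), and it was called in no comparison. Its part in the Nab2 counts was not tested.

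**Figure D2:**
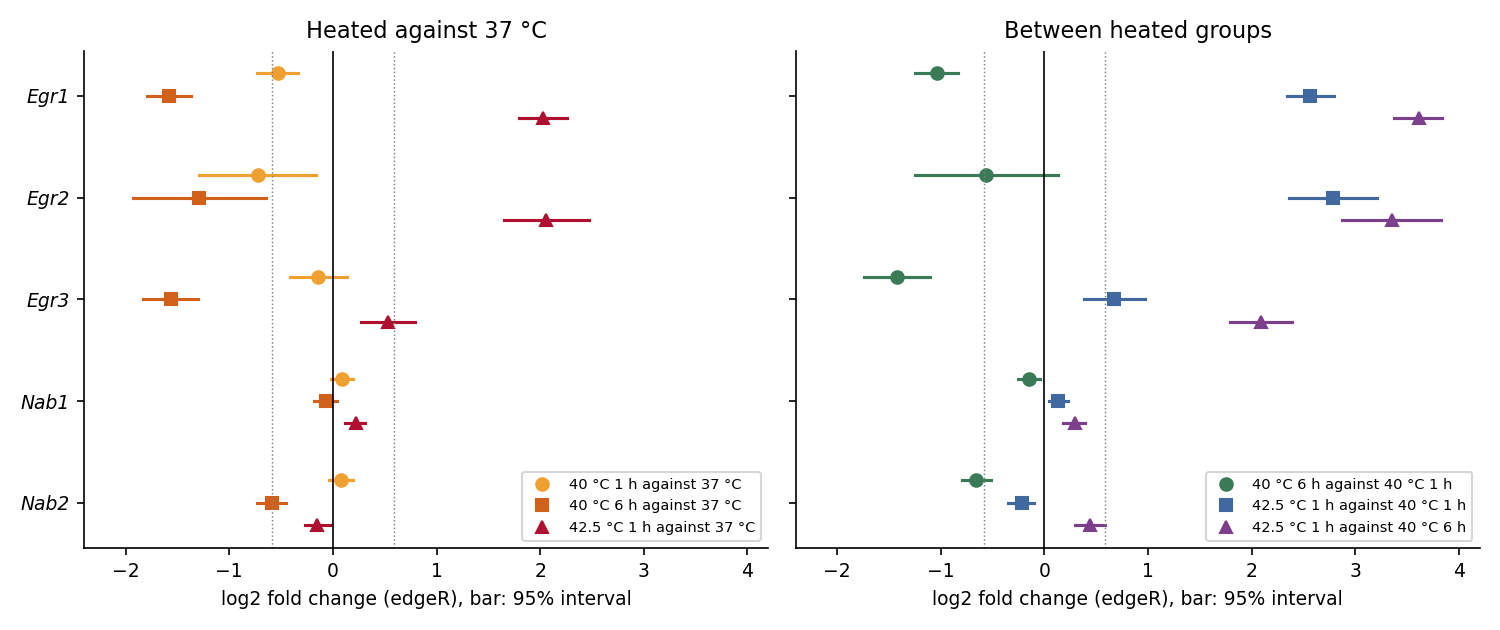
Fitted log2 fold changes of the 5 detected members (edgeR), against 37 °C on the left and between heated groups on the right, with 95% intervals as bars and dotted lines at a 1.5-fold change. Egr1 and Egr2 lie on opposite sides of 0 at 40 °C for 6 h and at 42.5 °C, Egr3 is low at 40 °C for 6 h, and the Nab1 intervals stay between the dotted lines; the Egr1 values are a description without a test.

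The balance of co-repressor and activator transcripts was described by ratios of read counts within each library. A ratio between 2 genes depends on their lengths, so only its differences between groups can be read. Nab2 had 1.13, 1.35 and 1.11 counts per Egr1 count in replicates A, B and C at 37 °C. The ratio was 1.8, 1.74, 1.74 and 2.02 at 40 °C for 1 h and 2.12, 2.47, 2.74 and 2.2 at 40 °C for 6 h. At 42.5 °C it was 0.223, 0.264, 0.249 and 0.331. All groups were apart from each other. The mean was 1.2 ± 0.133 in the controls (SD, n = 3), and in the heated groups (SD, n = 4) it was 1.83 ± 0.13 after 1 h and 2.38 ± 0.282 after 6 h at 40 °C and 0.267 ± 0.0463 at 42.5 °C. Since Nab2 itself changed less than Egr1, these ratios mostly restate the Egr1 values and were not tested.

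The proportions of the EGR members were described in the same way, again per Egr1 count and without a test. The number of Egr2 counts per Egr1 count was 0.035 ± 0.0041 in the controls (SD, n = 3). The heated groups (SD, n = 4) had 0.0303 ± 0.00597 after 1 h and 0.0428 ± 0.016 after 6 h at 40 °C, and 0.0364 ± 0.00412 at 42.5 °C. These groups overlapped throughout. Egr3 had 0.273 ± 0.0461 counts per Egr1 count in the controls (SD, n = 3). The ratio (SD, n = 4) was 0.353 ± 0.0317 after 1 h and 0.274 ± 0.0458 after 6 h at 40 °C. With 42.5 °C it was 0.0987 ± 0.0322 (SD, n = 4), and its highest library, at 0.142, lay below all others of the series. Egr1 accordingly made up between 70.2% and 79% of the EGR counts in the libraries at 37 °C and 40 °C and between 84.6% and 90.8% at 42.5 °C.

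**Figure D3:**
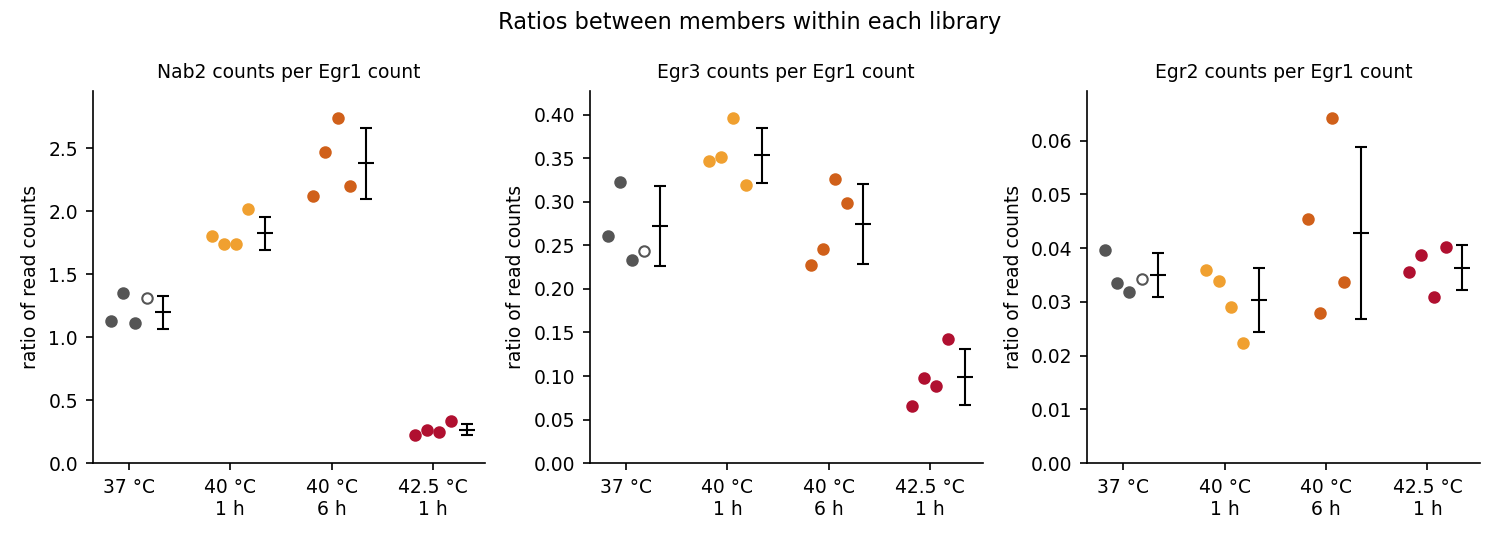
Ratios of read counts within each library (linear axes from 0): Nab2, Egr3 and Egr2 counts per Egr1 count, with libraries as points (37 °C replicate D open and outside the mean) and bars for mean ± SD. The Nab2 ratio lies between 0.223 and 0.331 at 42.5 °C and between 2.12 and 2.74 at 40 °C for 6 h, the Egr3 ratio is lowest at 42.5 °C, and the Egr2 ratio overlaps in all groups.

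Genes that act around the EGR factors were taken from lists written from general knowledge. The list of upstream regulators held SRF, its TCF and MRTF partners, CREB1 and the RAF, MEK, ERK and RSK kinases (16 genes, 15 found and tested). None of the 15 was called by edgeR or DESeq2 in any of the 3 comparisons with 37 °C, while 1, 5 and 11 of them had an unadjusted p under 0.05. Over all genes 0.334%, 3.11% and 7.51% were called by edgeR in these comparisons. An adjusted p under 0.05 was reached by 172 of 10494, 3091 of 10499 and 4510 of 10470 genes. The share of all genes at an unadjusted p under 0.05 was not counted, so the list's counts at that threshold were not read as particular to it. The median log2 fold change of the 15 was -0.02, -0.07 and -0.05 in the same order, against a median over all genes between -0.002 and 0.001. Srf was at 88.8 ± 6.42 CPM in the controls (SD, n = 3) and 77.8 ± 4.27 CPM at 42.5 °C (SD, n = 4). Elk1, a TCF factor, was at 30.9 ± 1.87 and 30.1 ± 1.62 CPM in the same groups. These are transcript levels and say nothing of phosphorylation, by which ELK1 is activated.

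The co-regulator list held NuRD subunits, through which NAB proteins act, and the coactivators p300 and CBP (13 genes, 10 found and tested). At both 40 °C times 0 of 10 were called by edgeR or DESeq2, against 0.334% and 3.11% of all genes by edgeR. An unadjusted p under 0.05 was reached by 0 of 10 after 1 h and 6 of 10 after 6 h. After 6 h 3091 of 10499 genes reached even an adjusted p under 0.05. At 42.5 °C only Crebbp, which encodes CBP, was called, 1 of 10, against 7.51% of all genes. Crebbp rose by 0.83 (log2, SE 0.08, adjusted p = 1.71e-06), from 21.2 ± 0.764 CPM (SD, n = 3) to 38 ± 4.02 (SD, n = 4), and the call held in all 14 alternatives. Ep300, its paralogue, was at 126 ± 6.66 CPM in the controls and 140 ± 8.96 CPM at 42.5 °C. Of the factors that bind similar GC-rich sites, Sp1 and Sp4 passed the filter and Wt1 did not. Sp1 rose at 42.5 °C by 0.71 (SE 0.08, adjusted p = 3.28e-06), from 30 ± 2.1 to 49.2 ± 4.47 CPM. At 40 °C for 6 h Sp1 was also higher, by 0.51 (SE 0.07, adjusted p = 6.17e-05) at 42.7 ± 2.07 CPM, below the fold threshold.

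Of 24 textbook EGR targets, 23 were found and 18 tested. After 1 h at 40 °C, 0 of 18 were called by edgeR or DESeq2, against 0.334% of all genes by edgeR, and 3 had an unadjusted p under 0.05. After 6 h at 40 °C 2 of 18 were called lower and 0 higher, against 3.11% of all genes called, with a median log2 fold change of -0.10 over the list. Thbs1, which encodes the matrix protein thrombospondin-1, fell by 0.90 (SE 0.09, adjusted p = 2.23e-06), from 107 ± 3.24 CPM (SD, n = 3) to 57.9 ± 9.31 (SD, n = 4). Icam1, a cell adhesion receptor, fell by 0.69 (SE 0.08, adjusted p = 1.41e-05), from 307 ± 7.82 to 191 ± 29.4 CPM. Both were also lower at 42.5 °C by edgeR, below the fold threshold. Thbs1 was at -0.40 there (SE 0.06, adjusted p = 3.77e-05) and Icam1 at -0.30 (SE 0.04, adjusted p = 7.47e-05). After 1 h at 40 °C Thbs1 was at -0.32 (SE 0.06, adjusted p = 0.015) and Icam1 at -0.09 (SE 0.04, adjusted p = 0.278).

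At 42.5 °C, where Egr1 and Egr2 were highest, 2 of the 18 targets were called higher and 1 lower, against 7.51% of all genes called, with a median of 0.04. Cblb, a ubiquitin ligase known as an EGR2 and EGR3 target, rose by 0.63 (SE 0.10, adjusted p = 0.00011), a call lost in 3 of 14 alternatives, with the replicate block and without 37 °C replicate C or 42.5 °C replicate D. F3, which encodes tissue factor, rose by 0.66 (SE 0.24, adjusted p = 0.0401) at levels below 2 CPM, and its call was lost in 10 of 14 alternatives, among them DESeq2, the replicate block and leaving out any control library or 42.5 °C replicate A, B or C. Gadd45b, a stress-induced regulator of growth arrest, fell by 1.05 (SE 0.11, adjusted p = 2.92e-06), a call that held in all 14 alternatives. Pdgfa and Tgfb1, growth factor genes with EGR sites, had log2 fold changes of 0.05 (SE 0.10) and 0.00 (SE 0.06) and were not called. Against 40 °C for 6 h, Vegfa was higher at 42.5 °C by 0.85 (SE 0.10, adjusted p = 4.45e-06) and Gadd45b lower, at -0.71 (SE 0.13, adjusted p = 0.000211), the latter not without 40 °C 6 h replicate A.

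Other immediate early genes (25 listed, 25 found) were set beside the EGR genes. At 42.5 °C 11 of 25 tested were called higher and 2 lower, against 7.51% of all genes called, with a median log2 fold change of 0.33. Among the 11 were Fos, Fosb and Nr4a3, which had few counts at 37 °C (5 to 11 for Fos, 4 to 5 for Fosb and 7 to 23 for Nr4a3). They passed the filter on low counts through the 42.5 °C libraries, so that their calls add no support to the count. Fos, a partner of JUN in the factor AP-1, was at 0.431 to 0.803 CPM in the control libraries and at 15.7 to 21.5 CPM at 42.5 °C, a fitted log2 fold change of 4.95 (SE 0.21). Dusp1, a MAP kinase phosphatase, rose by 2.29 (SE 0.14, adjusted p = 1.49e-08), Csrnp1 by 2.18 (SE 0.10, adjusted p = 3.78e-10) and Junb by 1.49 (SE 0.05, adjusted p = 3.49e-11). Ier2 fell by 1.18 (SE 0.15, adjusted p = 1.61e-05) and Klf2 by 0.76 (SE 0.22, adjusted p = 0.0126). The Klf2 call was lost with DESeq2 and without 37 °C replicate B.

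At 40 °C for 6 h, 2 of 23 tested immediate early genes were called higher and 3 lower, against 3.11% of all genes called, with a median of -0.24. Ccn1, a secreted matrix protein, and Ier2 both fell by 0.66 (SE 0.06 and 0.14, adjusted p = 2.34e-06 and 0.00202), the latter not without 37 °C replicate C. Atf3, a stress-induced transcription factor, fell by 0.62 (SE 0.19, adjusted p = 0.0204), a call lost in 6 of 14 alternatives, among them the replicate block and leaving out 37 °C replicate B or 40 °C 6 h replicate C or D. Fosl2, a FOS relative, rose by 0.69 (SE 0.08, adjusted p = 1.26e-05), and Nr4a3 had 0.78 (SE 0.28, adjusted p = 0.0459), a call lost in 9 of 14 alternatives, among them leaving out 37 °C replicate A or C or any library of the 6 h group. Nr4a3 passed the filter through the 6 h libraries, so that its call adds no support to the count. At 40 °C for 1 h 2 of 24 were called, both higher, against 0.334% of all genes, and 1 of them by DESeq2. The log2 fold changes of the 24 ran from -0.54 to 1.16, with a median of 0.03. Below the fold threshold, some genes were lower at an adjusted p under 0.05 by edgeR and some higher. Jun rose by 1.04 (SE 0.16, adjusted p = 0.00414), which was not called with all 4 control libraries, and Dusp1 by 0.60 (SE 0.12, adjusted p = 0.02), which was lost in 7 of 14 alternatives, including leaving out 37 °C replicate B or C or 40 °C 1 h replicate A or C.

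**Figure D4:**
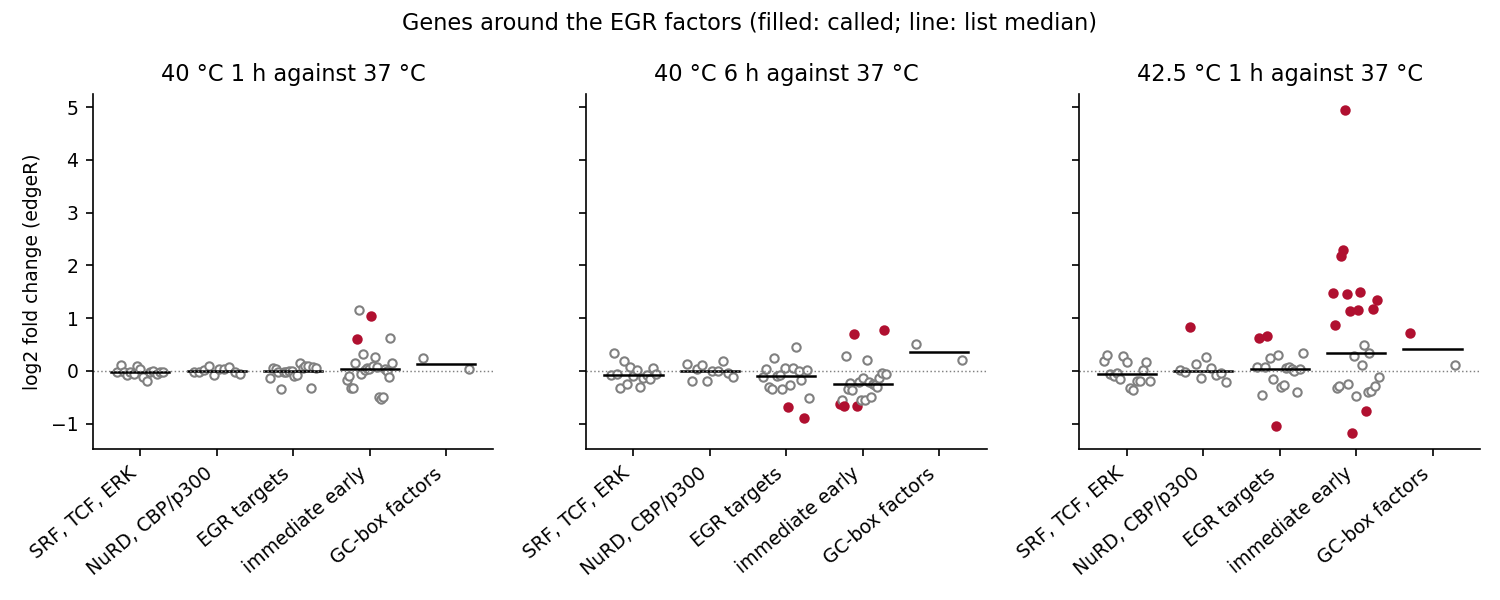
Log2 fold change against 37 °C (edgeR) of each tested gene in 5 lists around the EGR factors, 1 panel per treatment, with called genes filled, other genes open and a line at each list's median. At 42.5 °C the immediate early genes reach 4.95 and have 13 called genes of 25, against 7.51% of all genes. The 4.95 is Fos, which like Fosb and Nr4a3 passed the filter through the 42.5 °C libraries. Calls of these genes add no support to the count. The 15 upstream genes all stay between -0.37 and 0.31 at 42.5 °C.

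The genes whose pattern was most like that of a member were found among 9281 named genes, by the root mean square difference over 15 libraries of log2 CPM, each gene set to its own mean at 37 °C. For Egr1 the nearest gene was Egr2, with a difference of 0.323 on the log2 scale. Junb followed with 0.691, Skil, which encodes a co-repressor of SMAD proteins, with 0.736, Atf3 with 0.739 and Csrnp1 with 0.768. At 40 °C for 6 h Egr1 was at -1.57 from its 37 °C mean on this scale, Egr2 at -1.15 and the other 4 genes between -0.61 and -0.33. For Egr2 the nearest genes were Egr1, Junb with 0.622 and Skil with 0.641.

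For Egr3 the nearest genes were the chemokine genes Ccl2, with a difference of 0.369, and Ccl7, with 0.402, and the ETS factor gene Etv5, with 0.427. After 6 h at 40 °C Ccl2 and Ccl7 were at -1.53 and -1.51 from their 37 °C means, and Egr3 was at -1.53. At 42.5 °C Egr3 lay 0.52 above its mean, and Ccl2, Ccl7 and Etv5 were at -0.03, -0.12 and -0.04. Neither Egr1 nor Egr2 was among the 3 nearest genes of Egr3. These differences rank genes on the same libraries that chose the group and were not tested.

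**Figure D5:**
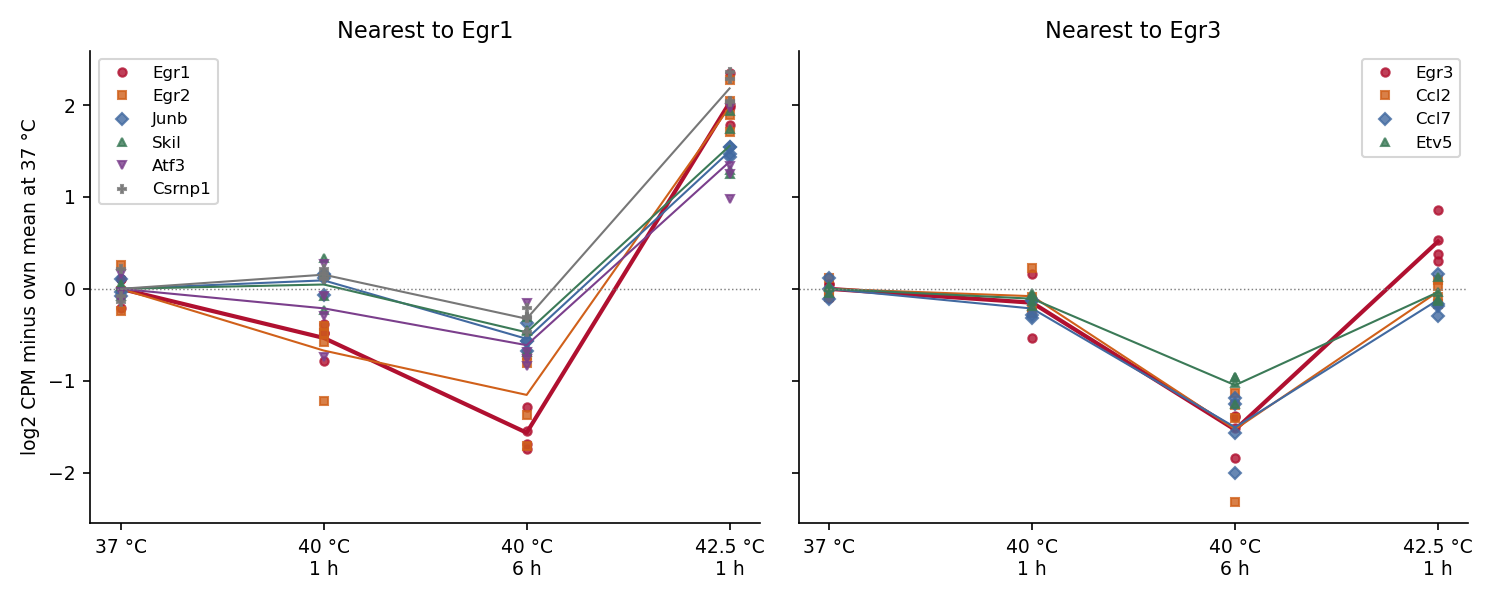
Log2 CPM minus each gene's own mean at 37 °C, over the 4 groups, for Egr1 and its 5 nearest genes on the left and Egr3 and its 3 nearest genes on the right, with libraries as points (n = 3 at 37 °C, n = 4 in heated groups) and lines through group means. Egr1 and Egr2 run close together from -1.57 and -1.15 after 6 h at 40 °C up to 2.03 and 1.98 after 42.5 °C, and the Egr3 profile lies near those of Ccl2 and Ccl7 except at 42.5 °C.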

How the data were processed

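Total RNA of CHO cultures was sequenced as paired ends on an Illumina NextSeq. Trimming, mapping to the CHOK1GS_HDv1 genome and counting were done by the authors in CLC Genomics Workbench. The deposited values are raw read counts per gene and library, whole numbers without normalization. The annotation release, the strand setting and the treatment of reads with several mapping places are not given in the sources used here. The control library to leave out was identified as 37 °C replicate D, because the 920 genes printed in the study's supplement carry the counts of replicates A, B and C.

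Each pair of groups was compared by the quasi-likelihood test of edgeR 4.0.16 (R 4.3.3) on the libraries of those groups, with filterByExpr at its defaults, TMM and Benjamini-Hochberg adjustment over all genes tested (10427 to 10499). Levels are CPM with TMM factors over all 16 libraries. Likeness used log2 CPM with a prior count of 2. The test was checked on simulated data.

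The members, the lists, the tests and the alternatives were chosen with earlier results of these data known. Named genes are the members, at most 4 called genes per list and comparison by size of change, and the 5 nearest genes of Egr1 and 3 each of Egr2 and Egr3. Stat6 and some genes that were not called (Srf, Elk1, Ep300, Pdgfa and Tgfb1) were named after their values had been seen. The same holds for some called genes beyond 4 a list (Atf3, Ier2, Klf2, Fosb and Nr4a3). Alternatives were the Wald test (DESeq2 1.42.0) and its size factors, the letter as a replicate block, a joint fit of all groups, inclusion of replicate D, each library left out, no filter or a minimum of 10 counts in every library, and adjusted p without the fold threshold. Same-letter libraries were checked as pairs by correlating their deviations from group means over 9281 genes. Between 40 °C for 1 h and 37 °C all 3 pairs were above 0.1 (r = 0.12 to 0.20), and in the other comparisons at least 1 pair was not. All values in the results come from fits without the block, and the block was an alternative in every comparison. The labels call the replicates biological repeats. 1 gene of the lists is not reported by name here. No sequence of a member was at hand in the reference used here.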

Additional observations from a re-analysis of the deposited data

Results flagged for a closer look

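Differences between treatments were tested directly between the heated groups (edgeR, adjusted over all genes), so that no control library enters. Set against 6 h at 40 °C, Egr2 was higher at 42.5 °C by 3.35 on the log2 scale (adjusted p = 8.57e-09, higher in 4 of 4 libraries than in any of the other group) and Egr3 by 2.09 (adjusted p = 8.57e-09, likewise). Between 42.5 °C and 40 °C for 1 h, Egr2 was higher by 2.78 (adjusted p = 1.01e-07) and Egr3 by 0.67 (adjusted p = 0.00161). In the comparisons with 42.5 °C, Egr2 passed the filter through the 42.5 °C libraries, so its calls and its separation add no support. Between 6 h and 1 h at 40 °C, Egr3 differed by -1.42 (adjusted p = 2.15e-05) and Nab2 by -0.66 (adjusted p = 1.32e-05). Of the 20 sets of 4 libraries examined (5 detected members in 4 groups), 0 held a library far from the others by Dixon's criterion, which chance meets in about 1 of 20.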

How the results depend on the processing

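Of 415 log2 fold changes of members computed under an alternative, 0 changed sign, 403 kept their side of the threshold (or, for Egr1, moved by less than the spread between replicates), 10 lost a call and 2 gained one. The lost calls were those of Nab2 at 40 °C for 6 h and of Egr3 between 42.5 °C and 40 °C for 1 h. The number of members called moved by more than 1.5 times in these cases. With at least 10 counts in every library, where Egr2 could not be tested, it was 1 at 40 °C for 6 h, where Nab2 at -0.58 was also under the fold threshold, and 1 each between 42.5 °C and either time at 40 °C. Over all genes, 277, 484 and 759 were called with that minimum. With adjusted p alone it was 3 at 42.5 °C against 37 °C, where 4510 of 10470 genes passed. It was 4 each for 42.5 °C against 40 °C for 1 h and for 6 h, where 3767 of 10441 and 4904 of 10427 genes passed. All 4 control libraries gave 2 at 42.5 °C, with 639 genes called over all genes. With single libraries left out it ran from 1 to 2 at 42.5 °C and from 1 to 2 between 42.5 °C and 40 °C for 1 h. Over all genes, 701 to 854 and 510 to 618 were called there.

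The replicate block gave 0, 2 and 1 members called at 40 °C for 1 h, 40 °C for 6 h and 42.5 °C, and 2 in each comparison between heated groups. The change from 3 to 2 at 40 °C for 6 h is Nab2, with -0.56, and the block changed no other call of a member. After 1 h at 40 °C, the comparison in which same-letter libraries deviated together, the blocked log2 fold changes were -0.56 for Egr2 and -0.03 for Egr3. Leaving out 40 °C 1 h replicate D gave the same -0.56 and -0.03. Against 37 °C letter D has no control library in the fit, so the block in effect drops heated replicate D. These settings are therefore not separate alternatives there, and an effect of pairing cannot be told apart from that loss. With the block 48, 333 and 717 genes were called over all genes against 37 °C. Counts over all genes without the fold threshold were 172, 3091 and 4510, and with all 4 control libraries 3 at 40 °C for 1 h. At Egr2's 5 to 29 counts outside 42.5 °C, counting error limits what can be seen, and its intervals are the widest. The list counts under the alternatives were added after the data had been seen.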
